A study of Mus musculus with 8 samples.

Results

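The genes of the ubiquitin-proteasome system described here were 86 symbols of the count table: 23 proteasome subunits and activators, 27 enzymes of ubiquitin conjugation, 31 deubiquitinases and 5 cullins. They were taken by name, as symbols that begin with PSM and a letter from A to G, UBA, UBE, USP, CUL or OTU followed by a number or family name, and by a sum of at least 40 counts over the 8 libraries. Of 215 rows with such a name, 83 were at 0 in every library, 46 held 1 to 39 counts and 86 reached the sum. The members were thus chosen by their counts summed over both groups, and those sums are given only as a description. USP49, with 44 counts, lay just inside the limit, and USP27X, with 34, and OTULIN, with 33, just outside it. Together the 86 genes held 3.26% of all counts.

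The libraries came from cardiomyocytes of adult C57BL/6 mice, taken from the perfused heart with collagenase, plated and cultured. Cells of the first group carried an siRNA against Hoxa5, a homeobox transcription factor (siHoxa5, 4 libraries), and cells of the second group a negative control siRNA (siN, 4 libraries). All 8 cultures received phenylephrine, an alpha-adrenergic agonist used to induce hypertrophy in culture, at 100 µM for 24 h, starting 24 h after transfection. Every comparison is therefore between phenylephrine-treated cells, untreated cells were not analysed here, and the labels do not say whether the libraries of a group came from separate animals, so a p-value speaks only of the variation among these 8 libraries.

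Ubiquitin is activated by an E1 enzyme, passed to an E2 conjugating enzyme and attached to a substrate with the help of an E3 ligase; cullins are the scaffolds of the largest E3 family and are themselves switched on by the ubiquitin-like protein NEDD8. Deubiquitinases remove or trim the chains, and the 26S proteasome, a proteolytic 20S barrel capped by the 19S regulatory particle, degrades the tagged protein. In heart muscle this system carries out much of the turnover of sarcomere and signalling proteins.

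Library totals were low, at 560190 to 619942 counts in siHoxa5 libraries and 635825 to 658192 counts in siN libraries. HOXA5 itself had 1, 3, 4 and 1 counts in siHoxa5 libraries and 2, 0, 3 and 3 counts in siN libraries, too few to assess a knockdown. Why they were so few was not tested. Of 14 cardiomyocyte markers, 9 had a count and TNNI3, MYL2, MYL3, MB and NPPA had none. In siHoxa5 libraries the cardiomyocyte markers summed to 62330 to 67698 CPM (counts scaled to a common library size with TMM factors). In siN libraries they summed to 48577 to 51785 CPM. Of 8 fibroblast markers, 6 had a count and LUM and TCF21 had none. The fibroblast markers summed to 10904 to 12846 CPM in siHoxa5 libraries and 10179 to 10848 CPM in siN libraries, without overlap. The sums of 7 endothelial, 7 smooth muscle and 7 macrophage markers stayed at or under 32.7 CPM in every library. The part of these differences in the results that follow was not tested, and in bulk RNA fewer cells of a type and less RNA per cell cannot be told apart. The siHoxa5 libraries 2 and 4 lay apart from siHoxa5 libraries 1 and 3 on the first principal component, at -10.8 and -11.0 against -2.74 and -4.69. The siN libraries lay at 6.30 to 7.77 there. On the second component siHoxa5 libraries 2 and 4 lay at opposite ends, at 8.30 and -13.4. Members whose call changes without these libraries are also given without them. That leaves only siHoxa5 libraries 1 and 3, the nearer to siN on the first component.

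The proteasome was measured in part only. Of the 31 genes with a PSM symbol that encode subunits of the 26S particle, 20 were members, 8 of 14 for the 20S barrel and 12 of 17 for the 19S cap. The cap subunits ADRM1 and SEM1, which carry other symbols, had no count. For them a row at 0 and a missing row were not told apart. The other 11 were nearly empty: the 20S genes PSMA1, PSMA2, PSMA6 and PSMB1 were at 0 in all 8 libraries, and 7 further subunits held 1 to 5 counts in all. No proteasome symbol held between 6 and 94 counts, while the subunits that were counted ran from 95 for PSMB3 to 3115 for PSMD11. All of these subunits are obligate parts of 1 particle, so a value at or near 0 cannot be read as a gene without expression. Elsewhere in the pathway UBA2, an E1 subunit for SUMO, was at 0. The 3 immunoproteasome subunits PSMB8, PSMB9 and PSMB10 were at 0 as well. Because genes of obligate subunits also stood at 0, these 3 are not read as absent either.

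**Figure D1:**
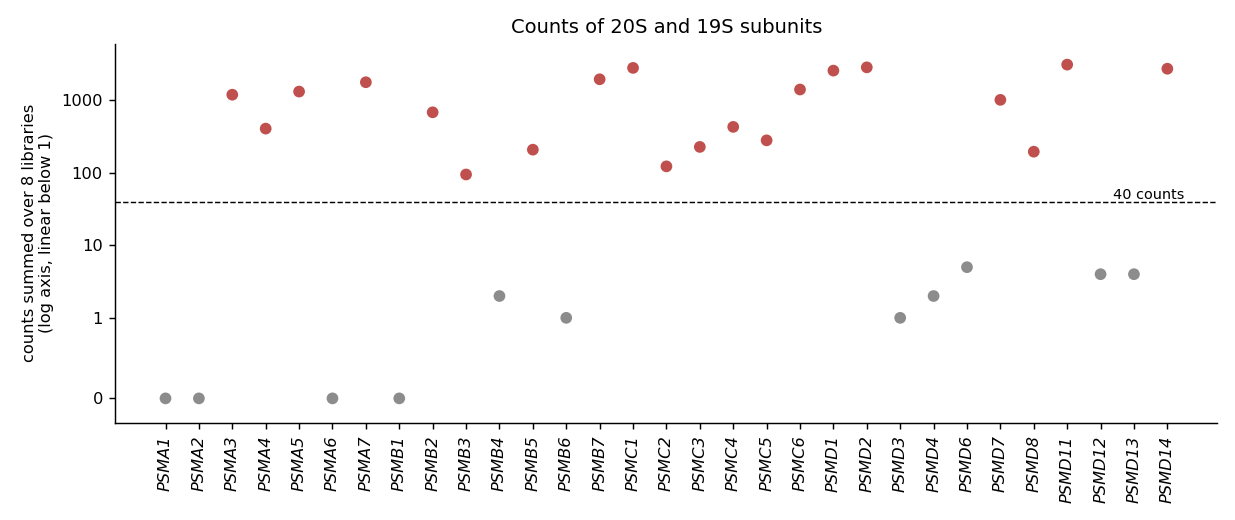
Counts of the 31 subunits of the 26S proteasome with a PSM symbol, summed over the 8 libraries, on a scale that is linear near 0 and logarithmic above, with members in red, the others in grey and the limit of 40 counts as a dashed line. The subunits fall at 0 to 5 counts or at 95 to 3115 counts, with none between.

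Per kilobase of transcript, the conjugating enzymes were the highest members. UBE2D3, a broadly acting E2 that serves many RING ligases, led all 86 genes at 1349 CPM per kb over the 8 libraries, and the next were UBE2M, the E2 for NEDD8, at 745 CPM per kb and UBE2L3, the E2 of HECT and RBR ligases, at 621 CPM per kb. The median member stood at 50.6 CPM per kb and the lowest, USP49, at 1.11 CPM per kb.

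Of the 86 members, 81 passed the filter on low counts and entered edgeR's quasi-likelihood test, which was adjusted over all 3020 tested genes. At an adjusted p under 0.05, 2 of the 81 fell with siHoxa5 and 0 rose, or 2.47%, against 7.12% of all tested genes (3.74% higher, 3.38% lower); the genes were UBE2R2 and OTUB1. The 4 CPM values of the groups did not overlap in 8 members that were lower and 5 that were higher with siHoxa5, or 13 of 81; among all tested genes 12.0% did not overlap, 5.76% lower and 6.19% higher. Without adjustment, p was under 0.05 for 19 members that were lower and 5 that were higher, where 10.3% of all tested genes were lower and 9.30% higher at that level. Both counts of 5 higher members include USP28, which passed the filter on low counts through the siHoxa5 libraries alone. The median log2 fold change (siHoxa5 over siN) of the 81 members was -0.06, against -0.00 for all tested genes, and 54 of them lay below 0, against 50.6% of all tested genes.

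UBE2R2, also called CDC34B, is an E2 that builds chains with cullin-RING ligases. It measured 867, 805, 897 and 740.2 CPM in siHoxa5 libraries, against 935, 1011, 1022 and 954 CPM in siN libraries. Every siHoxa5 library lay under every siN library, and the log2 fold change was -0.24 (SE 0.06, adjusted p = 0.00708 in edgeR). The lowest values were those of siHoxa5 libraries 2 and 4; without both, the log2 fold change was -0.15 with an adjusted p of 0.211 in edgeR. OTUB1 is a deubiquitinase of the OTU family that prefers chains linked through lysine 48 and also holds certain E2 enzymes inactive. It measured 147, 155, 129 and 182 CPM in siHoxa5 libraries, against 221, 183, 205 and 195 CPM in siN libraries. The groups did not overlap, although siHoxa5 library 4 and siN library 2 nearly met, and the log2 fold change was -0.40 (SE 0.12, adjusted p = 0.0273 in edgeR). That call was lost without siHoxa5 library 2 (adjusted p = 0.0549), without siHoxa5 library 3 (0.149), without siN library 1 (0.134) or without siN library 3 (0.0748), in the edgeR test. It was also lost with DESeq2 (adjusted p = 0.0816), without a filter on low counts (0.0703 in edgeR) and with the trends in transcript length and GC content removed (-0.30, adjusted p = 0.150 in edgeR). Without siHoxa5 libraries 2 and 4 together the OTUB1 call stayed, at -0.54 (adjusted p = 0.00850 in edgeR).

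Because Hoxa5 encodes a homeobox factor and homeodomains bind DNA around the 4 letters TAAT, the 250 bases upstream of the annotated start were searched for TAAT on either strand, in RefSeq on GRCm38.p6. Ube2r2 lies on chromosome 4 from 41135743 to 41193380 on the plus strand and Otub1 on chromosome 19 from 7198202 to 7206316 on the minus strand, in GENCODE M21 on the same build. The UBE2R2 window, chr4:41135771-41136020, held no TAAT, and lies in the 5′ UTR of the longer GENCODE transcript. The OTUB1 window, chr19:7206285-7206534, held 2 overlapping matches on opposite strands, 12 bases before the RefSeq start. The 30 bases next to that start, chr19:7206285-7206314, are shown 5′ to 3′ on the minus strand with both matches in capitals, since OTUB1 was the 1 called member with the motif; GENCODE M21 places them in the 5′ UTR of the first exon.
OTUB1: gggaggagggcaATTAATaacccggaagcg
A window of this length held TAAT on either strand in 58.5% of the 27025 genes of the RefSeq table, and in 30 of the 68 members with an entry (44.1%). By class it stood in 9 of 19 proteasome genes, 9 of 21 conjugation genes, 8 of 24 deubiquitinases and 4 of 4 cullins. A second motif, TGACNNNGC, the core of the antioxidant response element through which NFE2L1 and its relatives bind proteasome genes, was found on either strand in 11.5% of all windows, in 9 of the 68 members and in 2 of the 19 proteasome genes. These matches describe letters and no binding.

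**Figure D2:**
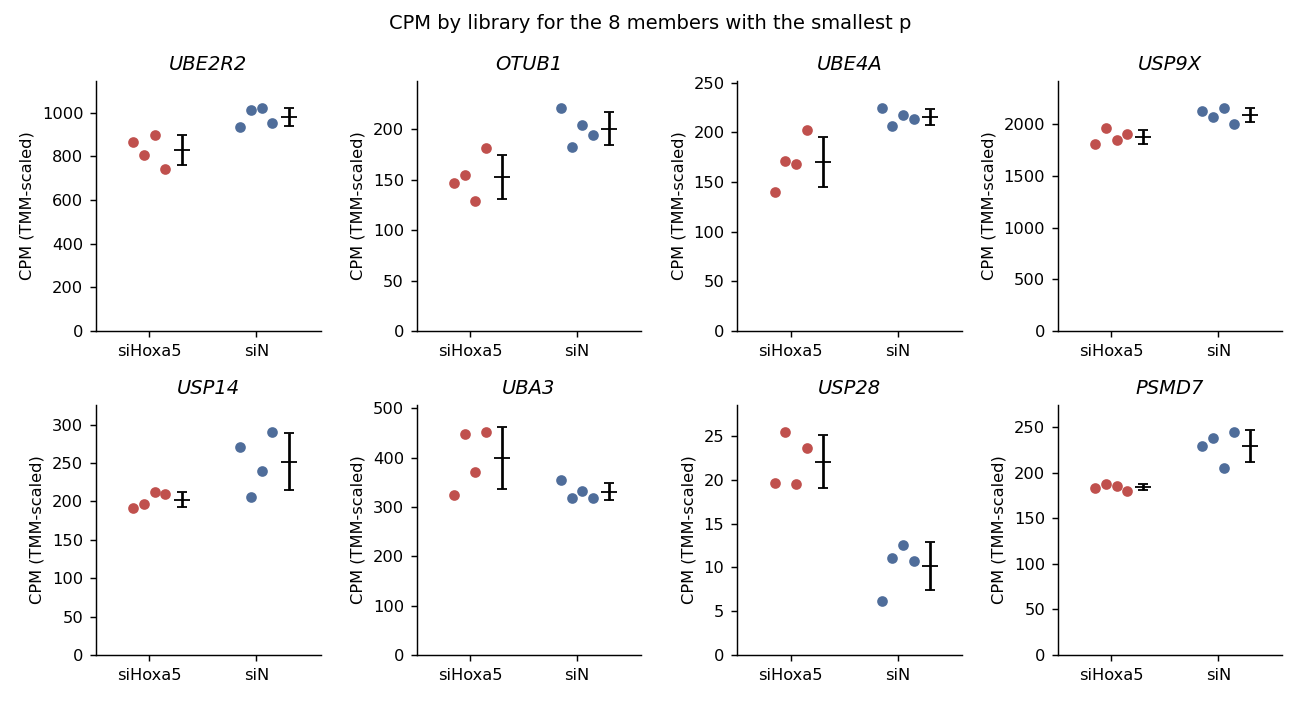
CPM in each library (points) with the mean and SD of the 4 libraries (bars), for the 8 members with the smallest p, siHoxa5 at the left of each panel and siN at the right. The groups are apart for UBE2R2, OTUB1, UBE4A, USP9X, USP28 and PSMD7, while USP14 and UBA3 overlap. USP28 passed the filter on low counts through the siHoxa5 libraries alone.

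Proteasome genes lay mostly a little lower with siHoxa5, but none of the 23 passed the threshold. Of the 23, 20 had a log2 fold change below 0 (87.0%) and the median was -0.17, with a range from -0.45 to 0.18. Summed over the 23 genes, CPM was 6048, 5960.3, 6227 and 6329 in siHoxa5 libraries, against 6906, 6462, 6686 and 6788 in siN libraries. All 4 siHoxa5 sums lay under all 4 siN sums, and the siHoxa5 mean was 91.5% of the siN mean. Without siHoxa5 libraries 2 and 4 the median was -0.13 and 19 of 23 lay below 0. Proteasome transcripts are short, with a median of 1581 bases against 4154 for all tested genes, and across 2970 genes the log2 fold change ran with transcript length at a Spearman rho of 0.219. With the trends in length and GC content removed from each library, the median of the proteasome genes was -0.08 and 17 of 23 lay below 0, with PSMA4 at 0.06, PSMD10 at 0.04 and PSMC1, an ATPase of the cap, at 0.01.

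The 19S cap is split into a ring of ATPases that unfold the substrate and the non-ATPase subunits that receive and strip it of ubiquitin. All 7 non-ATPase members, among them the assembly chaperone PSMD10, lay below 0, with a median of -0.17, and their CPM summed to 88.1% of siN without overlap between the groups. With the length and GC trends removed, that median was -0.12. PSMD7, a lid subunit that pairs with the deubiquitinating subunit PSMD14, measured 183, 188, 186 and 180.1 CPM in siHoxa5 libraries, against 229, 238, 205 and 245 CPM in siN libraries. The siHoxa5 libraries lay close together and under every siN library, at -0.32 on the log2 scale (SE 0.11), short of the threshold (adjusted p = 0.0663 in edgeR). With library totals in place of TMM scaling the adjusted p was 0.0490 in edgeR. Removing the length and GC trends took PSMD7 to -0.21 (adjusted p = 0.303 in edgeR). PSMD14, the metalloprotease that cuts ubiquitin chains from the substrate at the entrance of the particle, measured 496, 452, 554 and 558 CPM in siHoxa5 libraries, against 589, 524, 680.0 and 597 CPM in siN libraries. These overlapped, with a log2 fold change of -0.21 (SE 0.08, adjusted p = 0.0758 in edgeR), and the gene passed without siHoxa5 library 4 (-0.25, adjusted p = 0.0299 in edgeR) or without siN library 2 (-0.27, adjusted p = 0.0377 in edgeR). PSMD11, a lid subunit that joins the cap to the barrel, averaged 598 ± 54.8 CPM in siHoxa5 libraries and 673 ± 33.6 CPM in siN libraries (SD, n = 4 each; -0.17 on the log2 scale, adjusted p = 0.146 in edgeR). It passed without siHoxa5 library 4 (-0.23, adjusted p = 0.0389 in edgeR) and without siHoxa5 libraries 2 and 4 (-0.27, adjusted p = 0.0208 in edgeR). PSMD2, the large scaffold that docks ubiquitin-like shuttle proteins, averaged 548 ± 64.9 CPM in siHoxa5 libraries and 615 ± 41.3 CPM in siN libraries (adjusted p = 0.197 in edgeR).

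The 6 ATPases moved less uniformly. Of the 6, 4 lay below 0, and their summed CPM overlapped between the groups, at 93.4% of siN. PSMC4 measured 108, 61.9, 73.4 and 49.1 CPM in siHoxa5 libraries, against 120.0, 95.2, 89.7 and 98.0 CPM in siN libraries. Library 1 of the siHoxa5 group lay among the siN values and the other 3 lay under them, and the log2 fold change of -0.45 (SE 0.17) was short of the threshold (adjusted p = 0.105 in edgeR). PSMC4 passed without siHoxa5 library 1, at -0.70 (adjusted p = 0.00621 in edgeR), and was at -0.31 without siHoxa5 library 4 and -0.15 without siHoxa5 libraries 2 and 4 (adjusted p = 0.778 in edgeR). PSMC5 also stood at -0.45 (SE 0.21, adjusted p = 0.194 in edgeR), while PSMC3 and PSMC6 stood at 0.04 each.

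In the 20S barrel, alpha subunits form the gated outer rings and beta subunits the inner rings with the active sites. All 4 alpha members and all 4 beta members lay below 0, with medians of -0.19 and -0.18. With the length and GC trends removed, these medians were -0.07 and -0.06. The alpha genes summed to 88.0% of siN without overlap, and the beta genes to 87.0% with overlap. PSMA5, an alpha ring subunit, measured 248, 253, 261 and 242 CPM in siHoxa5 libraries, against 306, 271, 268 and 305 CPM in siN libraries. It was the only 20S gene whose groups did not overlap, with a log2 fold change of -0.20 (SE 0.10, adjusted p = 0.264 in edgeR). PSMB7, which carries the trypsin-like activity, averaged 370.5 ± 32.3 CPM in siHoxa5 libraries and 427 ± 52.8 CPM in siN libraries (adjusted p = 0.152 in edgeR).

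The 2 activator genes that replace the 19S cap in part of the proteasomes lay on either side of 0. PSME4, which encodes the activator PA200, measured 501, 563, 536 and 582 CPM in siHoxa5 libraries, against 495, 456, 502 and 475 CPM in siN libraries. Only siHoxa5 library 1 lay among the siN values, at 0.18 on the log2 scale (SE 0.08, adjusted p = 0.167 in edgeR). PSME3, the nuclear activator PA28 gamma, averaged 683 ± 78.9 CPM in siHoxa5 libraries and 711 ± 54.8 CPM in siN libraries, at -0.06 (SE 0.07, adjusted p = 0.696 in edgeR). Whether activators and subunits differ was not tested.

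**Figure D3:**
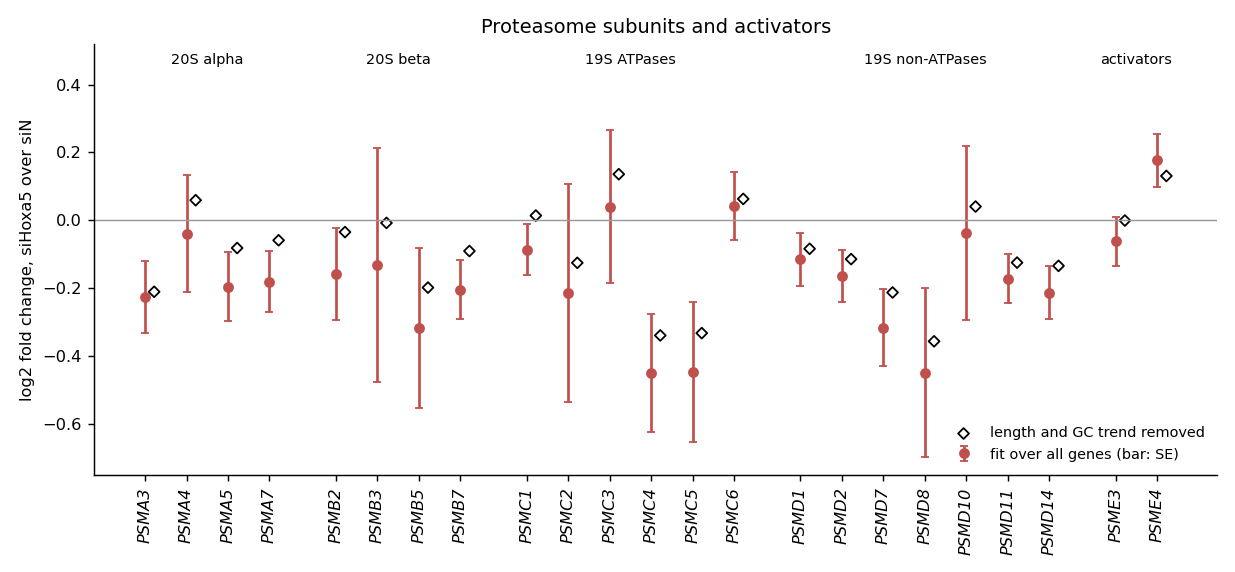
Log2 fold change of each proteasome member, siHoxa5 over siN, as circles with bars of 1 SE and, as diamonds, with the length and GC trends removed, grouped as 20S alpha, 20S beta, 19S ATPase, 19S non-ATPase and activator genes. The circles of all alpha, beta and non-ATPase genes lie below 0, 17 of 23 diamonds do, and none of the 23 members passed the threshold.

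The conjugation enzymes changed in 1 tested member of 25, UBE2R2, or 4.0% against the 7.12% of all tested genes, and their CPM summed to 96.5% of siN. The 4 sums of each group overlapped with TMM scaling, but not with library totals (95.2%), nor when UBE2D3 was left out (97.1% with TMM scaling). Their median log2 fold change was -0.08, within a range from -0.38 to 0.26, and 17 of 25 lay below 0. Among the E2 enzymes, 14 of 19 tested lay below 0. The CPM of the E2 genes summed to 96.0% of siN without overlap. These sums nearly met, at 18028 in siHoxa5 library 2 and 18079 in siN library 3. UBE2D3 measured 4748, 5412, 4975 and 4999.8 CPM in siHoxa5 libraries, against 5626, 5288, 5191 and 5118 CPM in siN libraries. Its groups overlapped, at -0.08 on the log2 scale (SE 0.05, adjusted p = 0.377 in edgeR). UBE2L3 averaged 1817 ± 89.5 CPM in siHoxa5 libraries and 1930.2 ± 36.0 CPM in siN libraries (SD, n = 4 each; adjusted p = 0.382 in edgeR). UBE2D2, the near relative of UBE2D3, averaged 1274 ± 74.6 CPM in siHoxa5 libraries and 1211 ± 55.5 CPM in siN libraries (adjusted p = 0.549 in edgeR).

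Further E2 genes showed groups that did not overlap without passing the threshold. UBE2A, one of the mammalian RAD6 enzymes of the DNA damage response, measured 88.2, 91.1, 97.8 and 83.7 CPM in siHoxa5 libraries, against 137, 122, 101 and 109 CPM in siN libraries. The log2 fold change was -0.38 (SE 0.16, adjusted p = 0.140 in edgeR). UBE2K, which builds chains linked through lysine 48, averaged 856 ± 41.7 CPM in siHoxa5 libraries and 938 ± 41.8 CPM in siN libraries, at -0.13 (SE 0.06, adjusted p = 0.229 in edgeR). UBE2E3 was the 1 tested E2 gene with every siHoxa5 library above every siN library, at 1098 ± 29.6 CPM in siHoxa5 libraries and 1053 ± 14.7 CPM in siN libraries, a log2 difference of 0.06 (SE 0.06, adjusted p = 0.636 in edgeR). Its groups nearly met with TMM scaling, at 1069 CPM in siHoxa5 library 1 and 1067 CPM in siN library 1. UBE2Z, which takes its ubiquitin from the alternative E1 UBA6, averaged 719 ± 85.1 CPM in siHoxa5 libraries and 816 ± 39.8 CPM in siN libraries, with overlap (-0.18, SE 0.07, adjusted p = 0.0924 in edgeR). Reads of the near-identical pairs UBE2D2 and UBE2D3, UBE2A and UBE2B, and the UBE2E genes could be split or dropped in counting, which the sources used here do not describe, so the values of these genes are uncertain.

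UBA3, the catalytic subunit of the E1 for NEDD8, measured 323, 448, 372 and 453 CPM in siHoxa5 libraries, against 355, 319, 332 and 319 CPM in siN libraries. The 2 highest values were those of siHoxa5 libraries 2 and 4, while siHoxa5 library 1 lay among the siN libraries. The log2 fold change was 0.26 (SE 0.09, adjusted p = 0.0590 in edgeR). UBA3 passed with the length and GC trends removed (0.28, adjusted p = 0.0476 in edgeR) and without siHoxa5 library 1 (0.35, adjusted p = 0.00438 in edgeR), and was at 0.07 without siHoxa5 libraries 2 and 4 (adjusted p = 0.798 in edgeR). UBA1, the main E1 for ubiquitin, stood at 0.13.

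The 4 ligases named with the E2 family went in both directions. UBE4A, a U-box ligase that extends ubiquitin chains, measured 140.4, 171, 168 and 202 CPM in siHoxa5 libraries, against 225, 206, 217 and 213 CPM in siN libraries. Its groups did not overlap, with siHoxa5 library 1 lowest, and the log2 fold change of -0.34 (SE 0.12) was just short of the threshold (adjusted p = 0.0544 in edgeR). Without siHoxa5 library 4 it passed, at -0.43 (adjusted p = 0.0143 in edgeR), as it did without siHoxa5 libraries 2 and 4, at -0.48 (adjusted p = 0.0184 in edgeR), and it passed with the length and GC trends removed (adjusted p = 0.0305 in edgeR). Its relative UBE4B stood at -0.33 (SE 0.15, adjusted p = 0.174 in edgeR). UBE3A, the HECT ligase lost in Angelman syndrome, measured 380.4, 319, 324 and 364 CPM in siHoxa5 libraries, against 303, 302, 285 and 306 CPM in siN libraries. Every siHoxa5 library lay above every siN library, at 0.21 on the log2 scale (SE 0.09, adjusted p = 0.163 in edgeR), or 0.10 with the length and GC trends removed.

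**Figure D4:**
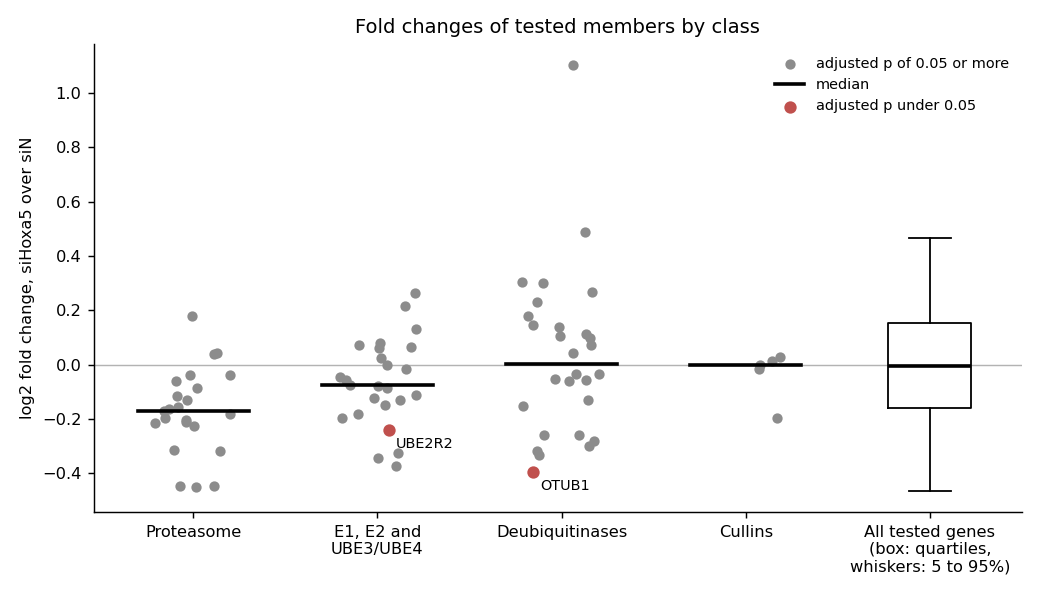
Log2 fold changes, siHoxa5 over siN, of the 81 tested members by class, 1 point a gene, with the class median as a line, red points for the 2 genes that passed the threshold and a box for all 3020 tested genes (quartiles, whiskers from 5% to 95%). The proteasome genes center at -0.17, the conjugation genes at -0.08, the deubiquitinases at 0.00 and the cullins at -0.00.

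Gene by gene, the fold changes of the deubiquitinases were spread evenly around 0. Of 28 tested, OTUB1 passed the threshold (3.57% against 7.12% of all tested genes), 14 lay below 0, and the median was 0.00 within a range from -0.40 to 1.10 for USP28. Their summed CPM was 5759, 5955, 5798 and 5711 in siHoxa5 libraries, against 6232, 5896, 6118 and 6054 in siN libraries. With TMM scaling these overlapped through siHoxa5 library 2 and siN library 2, and with library totals they did not, at 5836 in siHoxa5 library 2 and 5841 in siN library 2. The siHoxa5 mean was 95.6% of the siN mean with TMM scaling and 94.4% with library totals. USP9X, with the highest CPM of the class, averaged 1878 CPM in siHoxa5 libraries and 2086 CPM in siN libraries. In the USP family 11 of 24 tested genes lay below 0, and in the OTU family 3 of 4.

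USP9X, a very large X-linked deubiquitinase with many substrates, measured 1808, 1960.0, 1842 and 1902 CPM in siHoxa5 libraries, against 2127, 2065, 2156 and 1996 CPM in siN libraries. Its groups did not overlap, and the log2 fold change of -0.15 (SE 0.05) was short of the threshold (adjusted p = 0.0570 in edgeR). USP9X passed with the length and GC trends removed, at -0.27 (adjusted p = 6.66e-05 in edgeR), and without siHoxa5 libraries 2 and 4, at -0.19 (adjusted p = 0.00713 in edgeR). Leaving out siHoxa5 library 2 or siHoxa5 library 4 alone gave an adjusted p of 0.0363 or 0.0346 in edgeR. USP14, which sits on the 19S cap and trims chains from substrates, measured 191, 197, 212 and 209 CPM in siHoxa5 libraries, against 271, 206, 239 and 291 CPM in siN libraries. Only siN library 2 lay among the siHoxa5 values, and the log2 fold change was -0.32 (SE 0.11, adjusted p = 0.0570 in edgeR). USP14 passed with the length and GC trends removed (-0.37, adjusted p = 0.0245 in edgeR) and without siN library 2 (-0.40, adjusted p = 0.0224 in edgeR). USP32 averaged 182 ± 19.6 CPM in siHoxa5 libraries and 218 ± 17.4 CPM in siN libraries, with overlap (adjusted p = 0.173 in edgeR). USP34 and USP5, which takes apart free ubiquitin chains, stood at 0.04 and -0.05.

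USP28, a nuclear deubiquitinase known for stabilizing MYC, had 19.6, 25.5, 19.6 and 23.6 CPM in siHoxa5 libraries, against 6.15, 11.1, 12.6 and 10.7 CPM in siN libraries. That rested on 12, 14, 12 and 13 counts in siHoxa5 libraries and 4, 7, 8 and 7 counts in siN libraries. USP28 was the 1 tested member that passed the filter on low counts through the siHoxa5 libraries alone, so it had to be higher there, and its fold and p are given as a description. Every siHoxa5 library lay above every siN library, and the log2 fold change of 1.10 (SE 0.39) did not pass the threshold (adjusted p = 0.0652 in edgeR). Its paralog USP25 stood at 0.30 (adjusted p = 0.281 in edgeR). USP15, which acts on receptors and co-factors of TGF-beta signalling, averaged 179 ± 8.51 CPM in siHoxa5 libraries and 158 ± 4.47 CPM in siN libraries, without overlap (0.18, SE 0.12, adjusted p = 0.457 in edgeR). USP24 averaged 37.0 ± 1.05 CPM in siHoxa5 libraries and 30.0 ± 5.82 CPM in siN libraries, also without overlap (0.30, SE 0.26, adjusted p = 0.584 in edgeR). The USP24 groups nearly met, at 35.9 CPM in siHoxa5 library 3 (22 counts) and 35.4 CPM in siN library 1 (23 counts). OTUD7B, which prefers chains linked through lysine 11, stood at 0.49 (SE 0.25, adjusted p = 0.251 in edgeR).

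The 5 members under the filter included UBE2E1, USP13, USP37 and USP49. Tested with a filter at a sum of 40 counts, which let all 86 members in among 3628 genes, none of the 5 passed. USP49 measured 8.16, 10.9, 16.3 and 14.6 CPM in siHoxa5 libraries, against 3.08, 4.76, 7.87 and 7.66 CPM in siN libraries, and USP37 averaged 16.8 ± 3.41 CPM in siHoxa5 libraries and 11.7 ± 1.89 CPM in siN libraries. USP13 stood at 0.62 under that filter. USP37 and USP49 were without overlap, at 1.07 for USP49 (adjusted p = 0.236 in edgeR) and 0.52 for USP37 (adjusted p = 0.548 in edgeR).

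The 5 cullins showed no difference past the threshold. CUL1, the scaffold of SCF ligases, averaged 309.9 ± 23.5 CPM in siHoxa5 libraries and 310.0 ± 16.9 CPM in siN libraries, and its log2 fold change was -0.00 (SE 0.10). CUL3, which pairs with BTB proteins, averaged 694 ± 35.5 CPM in siHoxa5 libraries and 687 ± 45.9 CPM in siN libraries, at 0.01 (SE 0.07). CUL2, the scaffold of the von Hippel-Lindau ligase, stood at 0.03 (SE 0.11) and CUL5 at -0.02 (SE 0.22). CUL4B, which carries DDB1-bound receptors, averaged 219.6 ± 8.21 CPM in siHoxa5 libraries and 252 ± 36.4 CPM in siN libraries, at -0.20 (SE 0.11, adjusted p = 0.294 in edgeR); siN library 2 lay at 306 CPM, apart from the other 3, and without it the log2 fold change was -0.09.

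**Figure D5:**
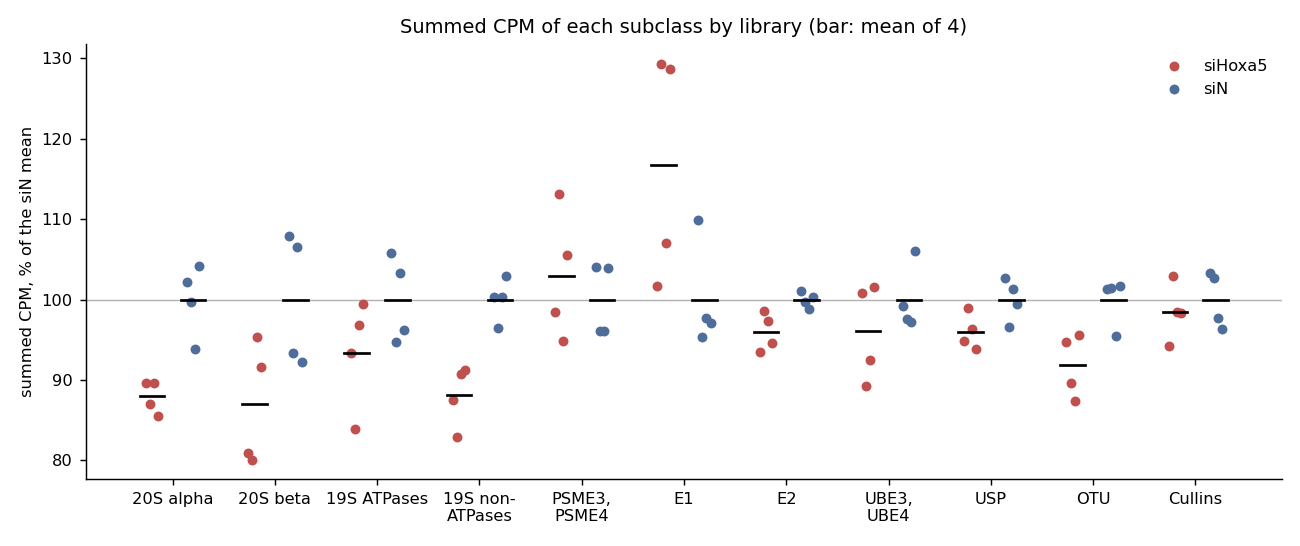
Summed CPM of each subclass in each library as a percentage of the siN mean, siHoxa5 points left of siN points and a bar at the mean of 4. The 20S alpha and 19S non-ATPase sums lie under all siN libraries in all 4 siHoxa5 libraries, at means of 88.0% and 88.1%, while the activators, at 103%, and the E1 enzymes, at 117%, overlap. The length and GC trends are not removed from these sums.

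The spread among libraries of a group is given by class. For the conjugation enzymes the median coefficient of variation was 8.40% in siHoxa5 libraries and 5.19% in siN libraries, with the larger value in the siHoxa5 group for 20 of 27 genes. For the cullins it was 5.12% in siHoxa5 libraries and 13.5% in siN libraries, with the larger value in the siHoxa5 group for 1 of 5 genes. These differences were not tested. Over all members the medians were close, at 10.7% in siHoxa5 libraries and 10.4% in siN libraries. Over the tested genes of the whole series, pairs of siHoxa5 libraries differed by a chi-square per degree of freedom of 1.47 to 2.57. Pairs of siN libraries differed by 1.37 to 1.55. The classes also differed in depth, with median sums of 1772 counts for conjugation enzymes, 1158 for cullins and 336 for deubiquitinases. A spread particular to a class is therefore not shown.

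Among other genes of the pathway, 123 were listed. They were ubiquitin genes, proteasome partners and transcription factors, p97 and cofactors, shuttle proteins, other deubiquitinases, NEDD8 and cullin regulators, SUMO genes and ligases. Of the 123, 63 were tested, and 1 rose and 2 fell, or 4.76% against 7.12% of all tested genes. NSFL1C, which encodes the p97 cofactor p47, measured 299, 255, 259 and 291 CPM in siHoxa5 libraries, against 339.9, 356, 349 and 414 CPM in siN libraries. It fell by 0.40 on the log2 scale (SE 0.09, adjusted p = 0.00157 in edgeR) and was called in all 18 alternatives. SYVN1, the ligase HRD1 of the endoplasmic reticulum, fell to 64.7 ± 6.13 CPM in siHoxa5 libraries, against 94.3 ± 11.2 CPM in siN libraries (-0.54, SE 0.18, adjusted p = 0.0383 in edgeR), and was called in 8 of 18 alternatives. The SYVN1 call was lost with DESeq2 (adjusted p = 0.0979), with no filter, with the length and GC trends removed, without siHoxa5 library 1, 2 or 3, without siN library 2, 3 or 4, and without siHoxa5 libraries 2 and 4. DCUN1D1, a cofactor that helps attach NEDD8 to cullins, measured 620.5, 743, 675 and 686 CPM in siHoxa5 libraries, against 595, 578, 554 and 562 CPM in siN libraries. It rose by 0.25 on the log2 scale (SE 0.07, adjusted p = 0.0173 in edgeR). The DCUN1D1 call held in 13 of 18 alternatives and was lost without siHoxa5 library 2, without siN library 3 or 4, with the length and GC trends removed, and without siHoxa5 libraries 2 and 4 (0.18, adjusted p = 0.190 in edgeR). The groups overlapped in none of the 3. The 63 genes had a median of 0.01, with 31 below 0; VCP, which is p97 itself, stood at -0.09 (adjusted p = 0.438 in edgeR), and NFE2L1, the factor that raises proteasome transcription when proteolysis is impaired, at -0.08 (adjusted p = 0.651 in edgeR). The muscle atrophy ligase TRIM63 and the chaperone-bound ligase STUB1 had no count, and FBXO32, with 19 counts, and the ubiquitin gene UBB, with 1, were under the filter.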

How the data were processed

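The authors deposited estimated counts per gene symbol, not normalized: 33514 rows, whole numbers in all but 4 of them. The tools named in the submitters' processing notes are STAR 2.6.1b, HTSeq, FastQC 0.11.8 and R 3.5.3, and the build is mm10. For annotation, strand and multi-mapped reads the setting was not given in the sources used here, so values of overlapping genes and near-identical copies are uncertain. Symbols are spelled as human genes are; all 86 members matched a mouse gene of GENCODE M21, UBE2D2 by a synonym (Ube2d2a). In 27 rows the symbol had become a date.

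Groups and replicate numbers came from the titles. Counts were rounded and tested with edgeR 4.0.16 (robust quasi-likelihood, TMM scaling, filterByExpr with minimum count 10 and minimum total 15; limma 3.58.1, R 4.3.3) over 3020 genes, with group as the only term, Benjamini-Hochberg adjustment and a threshold of 0.05. DESeq2 1.42.0 and limma's voom were alternatives. The SE is the log2 fold change divided by the root of its F statistic. No 2 libraries agreed within sampling noise. Same-numbered libraries deviated together at correlations of -0.02 to 0.07, and differently numbered ones at -0.05 to 0.04. Such values cannot settle whether the numbers pair cultures, and the labels do not say so. Transcript length and GC content are those of the longest coding transcript in GENCODE M21; their trends were removed with a spline of 4 degrees of freedom per library. The fit was tested on counts simulated for siHoxa5 against siN (2931 genes): a 1.25-fold change was recovered in 18.5% of genes, a 1.5-fold change in 60.3% and a 2-fold change in 92.2%, with 3 false calls among 112.

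The members, the other lists and the tests were chosen with earlier results of these data known. Named are members past the threshold; per class the 5 smallest p (3 for cullins) and the 3 highest mean CPM; members without overlap; and those nearest the limit of 40 counts. PSMA4, PSMC1, PSMC3, PSMC5, PSMC6, PSMD10, PSME4, UBA1, UBE2M, UBE4B, USP25, OTUD7B, CUL5, the nearly empty genes and the uncalled pathway genes were named after their values were seen. A few members and pathway genes are not reported here.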

Additional observations from a re-analysis of the deposited data

Results flagged for a closer look

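In each group of 4 libraries, 1 library far from the other 3 was looked for in 78 gene and group combinations, and 4 had one, where chance gives about 1 in 20. CUL3 stood at 755 CPM in siN library 1, with the other siN libraries at 659 to 666 CPM. CUL4B stood at 232 CPM in siHoxa5 library 1, with the others at 215 to 217 CPM, and at 306 CPM in siN library 2, with the others at 228 to 238 CPM. PSMD2 stood at 554 CPM in siN library 1, with the others at 631 to 643 CPM.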

How the results depend on the processing

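The 215 calls over all genes became 120 with DESeq2 and 143 without siHoxa5 libraries 2 and 4, and ranged from 145 to 260 with 1 library left out at a time. The 2 members called became 1 with DESeq2, 1 with no filter, 4 with upper-quartile scaling, 6 with library totals, 5 with the length and GC trends removed and 4 without siHoxa5 libraries 2 and 4 (OTUB1, PSMD11, UBE4A and USP9X), and ranged from 1 to 7 with 1 library left out. With the replicate number as a replicate block, a pairing that the labels do not state, 250 genes and 6 members were called (OTUB1, UBA3, UBE2R2, UBE4A, USP14 and USP9X). Of the 23 proteasome genes, 0 were called by edgeR, DESeq2 or voom, where edgeR left 9 lower and 1 higher at an unadjusted p under 0.05 (10.3% and 9.30% of all tested genes); PSMD7 was called with library totals and up to 2 genes when 1 library was left out. The proteasome median moved to -0.084 with the length and GC trends removed and ranged from -0.21 to -0.13 with 1 library left out, and the deubiquitinase median moved to 0.078 with the filter at 40 counts and to 0.083 with none. UBE2R2 was called in 17 of 18 alternatives and OTUB1 in 11. Signs turned for uncalled genes near 0: CUL1 to 0.0020 with the filter at 40 counts, 0.0070 with no filter and 0.014 with the trends removed, CUL3 to -0.0044 with library totals, -0.036 without siHoxa5 libraries 2 and 4 and -0.038 with the trends removed, USP34 to -0.0077 without those libraries and -0.069 with the trends removed, and USP5 to 0.0010 without those libraries. With 1 library left out, CUL1 ranged from -0.035 to 0.041, CUL2 from -0.040 to 0.106, CUL3 from -0.015 to 0.065, CUL4B from -0.24 to -0.09, PSMC4 from -0.70 to -0.31, PSMD2 from -0.24 to -0.10, PSME3 from -0.13 to 3.25e-05 and USP34 from -0.023 to 0.075. The causes of these shifts were not tested. Depth limits genes such as USP28, USP37 and USP49, with fewer than 26 CPM per library.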
